A study of Mus musculus with 18 samples.

Results

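*Pla2r1*, *Neurl1a* and *Samd1* are 3 of the 78239 genes in the count tables of mouse retina and of transfected cells. They were chosen by their change in the retina, as the most regular retinal changes outside the known targets of hypoxia-inducible factors (HIFs), so their difference between the vectors in the retina is given as a description and without a test. The retinal confidence intervals are not adjusted for that choice, so they are not read as tests, and the retinal changes may be overstated. The transfected cells were not used for that choice, and the contrast measured there was tested.

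*Pla2r1* encodes the M-type receptor of secreted phospholipases A2, a membrane protein of the mannose receptor family that is best known as the autoantigen of membranous nephropathy in kidney podocytes. *Neurl1a* encodes a RING-type E3 ubiquitin ligase, the mouse counterpart of *Drosophila* Neuralized, which ubiquitinates ligands of the Notch receptors and is found in neurons. *Samd1* encodes a nuclear protein that binds unmethylated CpG islands and acts there with L3MBTL3 and the histone demethylase LSD1 as a repressor of transcription. HIF1 is a dimer of an oxygen-regulated alpha subunit and a constitutive beta subunit that binds a short core motif, ACGTG or GCGTG, near its target genes.

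The study asked which transcripts respond when a normoxia-stable form of HIF1A (nsHIF1A) is made in rod photoreceptors. AAV::*nsHif1a* or, as control, AAV::eGFP was injected under the retina of wild-type mice at postnatal day 29 to 32, and retinal mRNA was sequenced at 3 weeks post injection (wpi) from 5 mice per group. Both vectors used the AAV2(QuadYF+TV;7m8) capsid and the rod-specific mouse opsin (mOP) promoter, and transduced a part of the retina, whereas RNA came from whole retinas. 661W cells, an immortalized mouse line that is described as photoreceptor-like, were transfected with a plasmid for *nsHif1a* or eGFP under the ubiquitous CMV promoter, and 4 libraries per group were sequenced at 20 h. The labels give the mice as C57BL/6J and the study's methods as 129S6, and no source used here states whether the cell libraries came from separate cultures, so the *p*-values for cells measure the spread between these libraries, which may be technical.

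The depth was 12898220 to 17809585 counts per library. *Hif1a*, which the count does not separate from the transgene, had a level of 638 to 729 CPM (counts scaled to a library total of 1000000) over the 10 retinal libraries. It did not pass the thresholds for a call, an adjusted *p*-value below 0.05 and an absolute log2 fold change (log2FC) above 0.5, in the retina (log2FC 0.05, standard error (SE) 0.04, limma adjusted *p* = 0.50), and rose in the cells (log2FC 3.26, SE 0.13, limma adjusted *p* = 1.2e-05). *Xist* had 19492 to 28595 counts in AAV::eGFP libraries 1 and 2 and in all AAV::*nsHif1a* libraries, and 1 to 3 counts in AAV::eGFP libraries 3, 4 and 5, so the retinal groups also differed in their share of libraries with *Xist* counts. Of the 10 rod markers, 3 were tested in the 661W cells, where the list summed to 13.4 to 18.1 CPM against 37100 to 52450 CPM in the retina, and of the 8 cone markers 2 were tested there.

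The windows from 250 bases before to 50 bases after the start of *Pla2r1* and *Neurl1a* are shown because HIF1 is the factor that was introduced. They are from RefSeq on GRCm38.p6, where 2 of the 3 genes had an entry, and are printed 5′ to 3′ in the direction of the gene. Capitals mark matches to GCGTG on either strand (CACGC where it lies on the opposite strand). The *Pla2r1* window is at chr2:60553259-60553558 on the minus strand and the *Neurl1a* window at chr19:47178570-47178869 on the plus strand.
Pla2r1: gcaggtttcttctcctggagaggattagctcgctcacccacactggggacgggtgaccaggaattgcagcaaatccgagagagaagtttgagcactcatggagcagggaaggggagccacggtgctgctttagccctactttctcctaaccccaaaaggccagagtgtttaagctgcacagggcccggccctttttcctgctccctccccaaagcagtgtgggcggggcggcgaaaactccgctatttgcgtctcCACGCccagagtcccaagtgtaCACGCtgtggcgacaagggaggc
Neurl1a: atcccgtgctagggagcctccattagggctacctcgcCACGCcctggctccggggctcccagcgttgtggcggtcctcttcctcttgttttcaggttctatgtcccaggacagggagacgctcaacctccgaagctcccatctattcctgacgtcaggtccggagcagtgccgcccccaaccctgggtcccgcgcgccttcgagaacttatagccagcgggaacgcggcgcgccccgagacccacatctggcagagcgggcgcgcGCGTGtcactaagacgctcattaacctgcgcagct

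Each window held 2 matches to GCGTG and no match to ACGTG. In the *Pla2r1* window both matches were on the strand opposite to the gene, with their first base at positions 256 and 278, after the gene start. In the *Neurl1a* window 1 match was on the opposite strand at position 38 and 1 on the strand of the gene at position 266. Among 32851 promoter windows of this length, 32.4% held GCGTG, 11.1% held it 2 or more times and 19.6% held ACGTG on either strand. The GC content was 58.7% for *Pla2r1* and 64.3% for *Neurl1a*, against a median of 52.7%. A match of these letters describes the window and does not show binding.

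*Pla2r1* (ENSMUSG00000054580) spans chr2:60247887-60383654 on the minus strand of GRCm39, with 29 exon blocks and 10635 exonic bases. Its transcript was high in the control retina, where 95.5% of the 18859 tested genes had a lower level. The AAV::eGFP retinas had 183, 190.3, 192, 196 and 180.3 CPM in libraries 1 to 5, and the AAV::*nsHif1a* retinas had 136, 113, 109, 114 and 116 CPM. Every AAV::*nsHif1a* retina was below every AAV::eGFP retina, with 43.9 CPM between the groups. The group means were 188 ± 6.61 and 118 ± 10.9 CPM (SD, n = 5 each), and the log2FC was -0.70 (SE 0.05, 95% confidence interval -0.81 to -0.58). Library 1 stood nearest to the controls, and the other 4 AAV::*nsHif1a* libraries lay within 109 to 116 CPM.

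*Neurl1a* (ENSMUSG00000006435) spans chr19:47166995-47248676 on the plus strand of GRCm39, with 9 exon blocks and 8628 exonic bases. The AAV::eGFP retinas had 67.3, 72.6, 58.4, 64.2 and 64.4 CPM in libraries 1 to 5, and the AAV::*nsHif1a* retinas had 98.4, 112, 99.9, 113 and 107 CPM. All AAV::*nsHif1a* libraries were above all controls, by at least 25.8 CPM. Controls averaged 65.4 ± 5.19 CPM and AAV::*nsHif1a* retinas 106 ± 6.63 CPM (SD, n = 5 each), which gave a log2FC of 0.70 (SE 0.06, interval 0.57 to 0.83). With the *Xist* class of the libraries as a covariate the log2FC was 0.60.

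*Samd1* (ENSMUSG00000079003) spans chr8:84723097-84727057 on the plus strand of GRCm39, with 7 exon blocks and 3093 exonic bases. The AAV::eGFP retinas had 11.8, 13.4, 12.4, 11.4 and 12.7 CPM in libraries 1 to 5, and the AAV::*nsHif1a* retinas had 19.9, 19.4, 20.4, 20.9 and 19.6 CPM. The groups did not overlap, and the 5 AAV::*nsHif1a* retinas lay within 19.4 to 20.9 CPM. From 12.4 ± 0.77 CPM in controls to 20.04 ± 0.61 CPM with AAV::*nsHif1a* (SD, n = 5 each), the log2FC was 0.70 (SE 0.06, interval 0.56 to 0.83).

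In the retinal libraries with *Xist* counts alone, 2 controls against 5, the log2FC was -0.69 for *Pla2r1*, 0.60 for *Neurl1a* and 0.66 for *Samd1*.

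**Figure D1:**
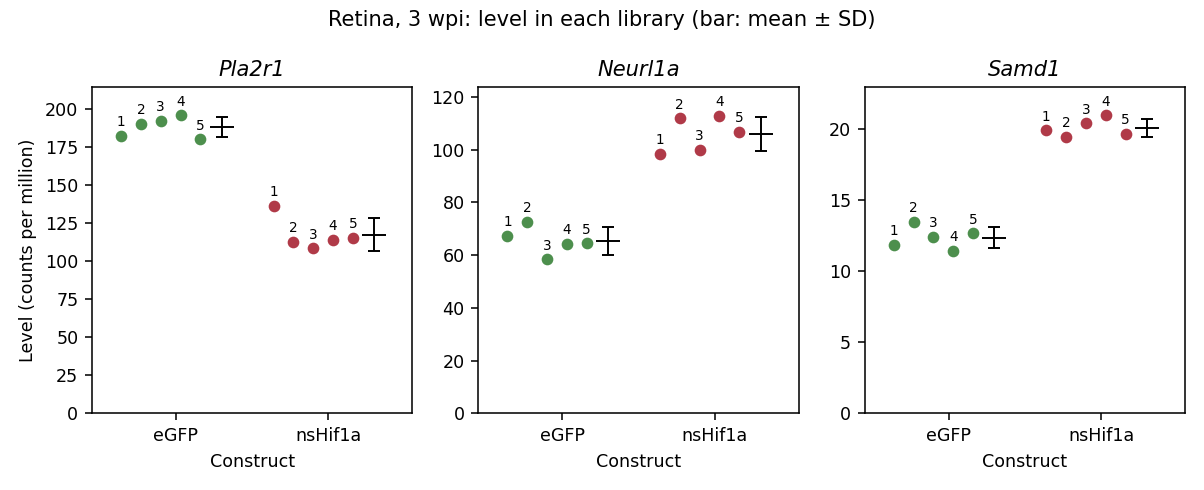
Level of *Pla2r1*, *Neurl1a* and *Samd1* in CPM (y axis, from 0) in each retinal library at 3 wpi, for AAV::eGFP (green) and AAV::*nsHif1a* (red). Numbers name the libraries and bars give the mean ± SD of 5 libraries. The *Pla2r1* values with AAV::*nsHif1a* all lie below the controls, and those of *Neurl1a* and *Samd1* all lie above.

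The 3 changes were of like size, from -0.70 for *Pla2r1* to 0.70 for *Neurl1a* and *Samd1*. Ordered by the absolute moderated *t* of limma, *Pla2r1* was at rank 2, *Neurl1a* at rank 4 and *Samd1* at rank 9 of 18859 genes. The other genes among the first 12 were the glucose transporter *Slc2a3*, the lactate dehydrogenase *Ldha*, the glycolytic isomerase *Gpi1*, *Fgf11*, the lactate transporter *Slc16a3*, the adenylate kinase *Ak4*, *Rnf145*, the mitophagy receptor *Bnip3* and the angiogenic factor *Vegfa*. Of these, *Fgf11* (log2FC 0.60, absolute *t* 11.6) and *Rnf145* (0.46, 11.2) were not on the list of known HIF targets either, with an absolute *t* close to the 11.2 of *Samd1*. Among all tested genes 1.08% of the genes were called upregulated and 0.912% downregulated. For 3.25% of the genes every AAV::*nsHif1a* library was above every control, and for 2.69% below. Since the genes were picked from this ranking, nothing is read from these shares here.

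The rod markers were lower on average in the same libraries. Their summed level was 47120 to 52450 CPM with AAV::eGFP and 37100 to 48990 CPM with AAV::*nsHif1a*, all 10 had a log2FC below 0 (-0.31 to -0.03), and none was called. In bulk retina, fewer cells of a type and less RNA per cell cannot be told apart. Per 1000 CPM of the rod markers, *Pla2r1* had 3.53 to 4.03 CPM with AAV::eGFP and 2.51 to 3.11 CPM with AAV::*nsHif1a*, and its log2 ratio of group means was -0.43. On the same scale the log2 ratio was 0.95 for *Neurl1a* and 0.95 for *Samd1*. These ratios are built on the values that chose the genes, and the part of the rod content in them was not tested. The 55 known HIF targets, of which 24 were called upregulated and 0 downregulated, had their lowest mean level among the AAV::*nsHif1a* retinas in library 1 (6.26 log2 CPM against 6.40 to 6.62). Library 1 had the highest *Pla2r1* and the lowest *Neurl1a* of that group and the middle value of *Samd1*, while library 5, with the highest mean of the HIF targets, had neither the lowest *Pla2r1* nor the highest *Neurl1a*. The microglia and macrophage markers, all 10 of which had a log2FC above 0 (median 1.1), summed to 28.9 to 171 CPM with AAV::eGFP and 55.7 to 165 CPM with AAV::*nsHif1a*. The lens markers, also all 10 above 0 (median 1.80), summed to 1850 to 6023 CPM and 1688 to 25170 CPM, and no gene of these 2 lists was called. Their part in the 3 genes' values was not tested.

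Neighbouring and overlapping genes were counted beside the 3 genes. *Prkaca*, the catalytic subunit of protein kinase A, ends 5 bases before *Samd1* on the same strand, and its retinal levels were 155 ± 8.04 CPM in controls and 159 ± 9.36 CPM in AAV::*nsHif1a* mice (SD, n = 5 each, log2FC 0.04, limma adjusted *p* = 0.65). *Gm55328*, which shares 720 exonic bases with *Neurl1a* on its strand, had 11 to 46 counts per retinal library and a log2FC of 0.52 (SE 0.27, limma adjusted *p* = 0.29). *Gm13583*, a non-coding gene antisense to *Pla2r1*, had 13 to 47 counts and a log2FC of -0.68 (SE 0.24, limma adjusted *p* = 0.13). Of the 50-base words in the transcripts, 2.53% for *Pla2r1*, 9.96% for *Neurl1a* and 16.6% for *Samd1* also occur in other genes, for *Samd1* in the non-coding *Gm64200* and *Gm56840* on the opposite strand, which the stranded count keeps apart. Reads of *Neurl1a* in the stretch shared with *Gm55328* are uncertain in their assignment.

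The genes whose log2 CPM over the 10 retinal libraries was most like that of each gene were named by Pearson's *r*, as a description in which the libraries share the contrast between the vectors. For *Pla2r1* these were *Cdcp3* (*r* = 0.992), *Glb1l2*, *Dleu7*, *Gm12996* and *Fndc1*, all lower with AAV::*nsHif1a* (log2FC -0.54 to -1.13). After the group means were subtracted, *r* between *Pla2r1* and *Cdcp3* was 0.952. *Cdcp3* was picked as the best match on these same libraries, so this value is no independent evidence that the 2 transcripts vary together. For *Neurl1a* they were *Gpi1* (*r* = 0.981), the vasodilator peptide gene *Adm*, *Rnf145*, *Smtnl2* and *Gpi-ps*, with *r* of 0.504 to 0.67 within groups. For *Samd1* they were *Adm* (*r* = 0.978), *Ldha*, *Neurl1a* itself, *Tmem179b* and *Gm2606*, with *r* of 0.257 to 0.543 within groups. The partners of *Pla2r1* had *r* of 0.766 to 0.952 within groups. All partners were picked on these same libraries. The *Pla2r1* values within groups also deviate most in AAV::*nsHif1a* library 1 (136 CPM against 109 to 116 CPM in the others of that group). The values of *r* within groups are therefore not compared between the 3 genes.

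In the transfected 661W cells *Pla2r1* was close to the limit of detection. The eGFP libraries 1 to 4 held 11, 6, 11 and 7 counts of this gene and the *nsHif1a* libraries 20, 18, 23 and 21. Every *nsHif1a* library was above every eGFP library, the opposite of the order in the retina. The mean was 0.556 ± 0.127 CPM (SD, n = 4) with eGFP and 1.25 ± 0.091 CPM (SD, n = 4) with *nsHif1a*, and 1.1% of the 15962 tested genes had a lower control level. The log2FC was 1.13 (SE 0.24, interval 0.59 to 1.66). *Pla2r1* entered the test after the filter on low counts because all 4 *nsHif1a* libraries reached the minimum of 0.596 CPM that 4 libraries had to have, which only 2 eGFP libraries did. Since the gene was admitted in part by the difference itself, the limma adjusted *p* of 0.045, which lies past the threshold, is given for completeness and is not read as a call. Without that filter the log2FC was 1.14 and limma's adjusted *p* = 0.088. Of all genes tested after the filter, 1.21% were called upward and 0.0626% downward.

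The adjusted *p*-value also depended on the libraries and the fit. With the replicate number as a block, which pairs the cell libraries, the log2FC was 1.12 and limma's adjusted *p* = 0.095. The adjusted *p* of limma was also 0.086, 0.096, 0.053 and 0.061 without eGFP library 1, 2, 3 or 4 in turn, at a log2FC of 0.997 to 1.23. Without *nsHif1a* library 1, 2, 3 or 4 it was 0.039, 0.040, 0.013 and 0.013. With the replicate classes as a covariate limma gave 0.020, with RLE size factors 0.046 and without quality weights 0.049, and edgeR gave 0.043. The fits below 0.05 all kept the filter on low counts, so they are not read as calls either. The direction was the same within replicates 1 and 2 (log2 ratio of means 1.19) and within replicates 3 and 4 (1.14). Over all 4 libraries per group, 7.51% of all tested genes had every *nsHif1a* library above every control.

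*Neurl1a* was low in the cells but counted in every library. The eGFP libraries 1 to 4 had 5.22, 5.06, 3.53 and 3.68 CPM, and the *nsHif1a* libraries had 7.54, 7.94, 4.04 and 4.62 CPM. Libraries 1 and 2 of either construct were above libraries 3 and 4 of the same construct, and the groups overlapped. The log2FC of 0.44 (SE 0.24, interval -0.10 to 0.99, limma adjusted *p* = 0.33) did not pass. Within replicates 1 and 2 both *nsHif1a* libraries were above both controls (log2 ratio of means 0.59), and so they were within replicates 3 and 4 (0.26). How many of all genes had such an order with 2 libraries against 2 was not counted, so nothing is read from it. With these 2 pairs of numbers as a covariate the log2FC was 0.46 at a limma adjusted *p* of 0.034, under the fold threshold, and with the replicate number as a block it was 0.44 at 0.13. Without *nsHif1a* library 3 or 4 the value was 0.79 or 0.78 and passed (limma adjusted *p* = 0.0075 and 0.011), and without *nsHif1a* library 1 or 2 it was 0.05 or 0.06.

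*Samd1* was at a middle level in the cells, with 56.5% of the tested genes below it. The eGFP libraries 1 to 4 had 29.7, 33.1, 30.8 and 29.9 CPM, and the *nsHif1a* libraries had 29.03, 26.2, 30 and 32.2 CPM. The groups overlapped, and the log2FC was -0.08 (SE 0.07, limma adjusted *p* = 0.59). Its interval was -0.24 to 0.09. The log2 ratio of means was -0.19 within replicates 1 and 2, where the groups did not overlap, and 0.03 within replicates 3 and 4, where they did. Over all 4 libraries per group, 6.11% of all tested genes had every *nsHif1a* library below every control. That share does not apply to 2 libraries against 2, for which none was counted, so nothing is read from the lack of overlap. The sign turned without *nsHif1a* library 1 (0.0028) or 2 (0.015).

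**Figure D2:**
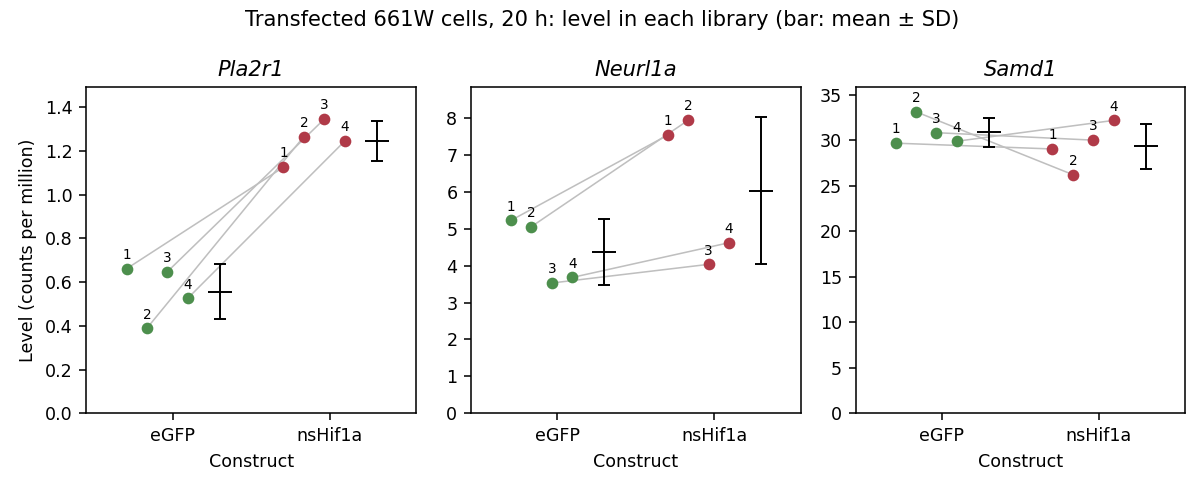
Level of the 3 genes in CPM (y axis, from 0) in each 661W library at 20 h after transfection with eGFP (green) or *nsHif1a* (red). Lines join libraries with the same number and bars give the mean ± SD of 4 libraries. All *Pla2r1* values with *nsHif1a* lie above the controls, *Neurl1a* splits by replicate number, and the *Samd1* groups overlap.

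The genes most like each of the 3 over the 8 cell libraries were others than in the retina. They were *Fam135a* (*r* = 0.987), *Crkl*, *Rbm39*, *Fam227a* and *Rnf152* for *Pla2r1*, whose values rest on 6 to 23 counts per library. For *Neurl1a* they were *Ergic3* (*r* = 0.997), the fatty acid desaturase *Scd2*, *H2-Q6*, *Map3k7cl* and *Slc30a4*, with *r* of 0.987 to 0.997 within groups as well. For *Samd1* they were *Srp9* (*r* = 0.979), *Tmem267*, *Prokr1*, *Adck5* and *Tmem201*. The libraries share the replicate classes 1 and 2 against 3 and 4, along which *Neurl1a* varied.

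Between the experiments, the effect of *nsHif1a* in the retina minus that in the cells was -1.85 on the log2 scale for *Pla2r1* (SE 0.33), 0.38 for *Neurl1a* (SE 0.23) and 0.75 for *Samd1* (SE 0.10), from a joint fit of the 18 libraries. No test is given because the retinal effect chose the genes. *Pla2r1* was lower in all 5 retinas and higher in all 4 transfected libraries than in any control of the same experiment, *Neurl1a* had positive values in both, and *Samd1* was higher in all 5 retinas and overlapped the controls in the cells.

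**Figure D3:**
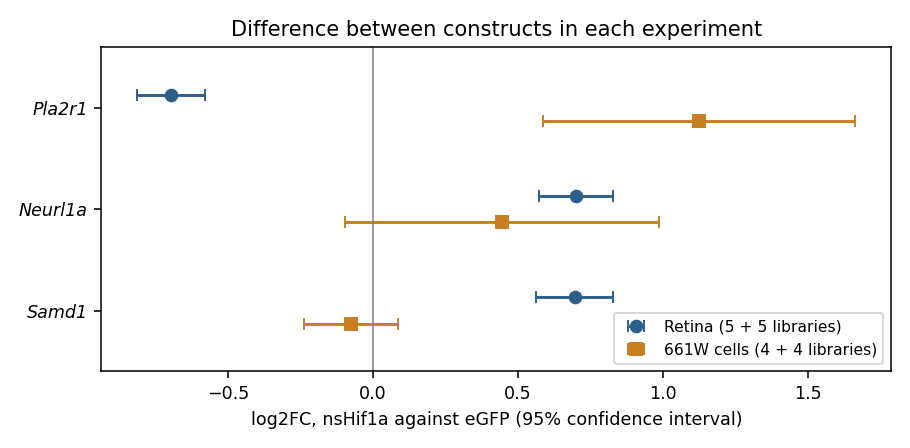
The log2FC of *nsHif1a* against eGFP (x axis) with its 95% confidence interval for each gene in the retina (blue circles) and in 661W cells (orange squares). The retinal intervals are not adjusted for the choice of the genes by their retinal change and are not read as tests. The point for *Pla2r1* is at -0.70 in the retina and at 1.13 in the cells, both points for *Neurl1a* are above 0, and *Samd1* is at 0.70 in the retina and at -0.08 in the cells.

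The control levels differed between retina and cells for each gene. In the joint fit of 20999 genes the control retina was above the control cells by 8.46 on the log2 scale for *Pla2r1* (SE 0.23, limma adjusted *p* = 3.7e-17) and by 4.0 for *Neurl1a* (SE 0.16, limma adjusted *p* = 6.9e-15). *Samd1* was lower in the control retina, by a log2 difference of -1.22 (SE 0.07, limma adjusted *p* = 1.8e-12). Such differences were common, since 46.1% of all genes were called above and 35.1% below, and tissue, vector, time and handling differ together between the experiments. The control retinas are also a part of the contrast that chose the genes.

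On the joint scale, *Pla2r1* was ordered from the control retina (194 ± 6.64 CPM) over the AAV::*nsHif1a* retina (122 ± 11.5 CPM, both SD, n = 5) to the *nsHif1a* cells (1.20 ± 0.087 CPM) and the eGFP cells (0.532 ± 0.125 CPM, both SD, n = 4), with no overlap between neighbours. *Neurl1a* was ordered from the AAV::*nsHif1a* retina (109.8 ± 6.66 CPM) over the control retina (67.4 ± 5.26 CPM) to the *nsHif1a* cells (5.78 ± 1.87 CPM) and the eGFP cells (4.18 ± 0.878 CPM), and the last 2 groups overlapped. *Samd1* had the reverse order of tissues, with 29.5 ± 1.59 CPM in eGFP cells and 28.2 ± 2.62 CPM in *nsHif1a* cells, which overlapped, then 20.8 ± 0.64 CPM in the AAV::*nsHif1a* retina and 12.7 ± 0.776 CPM in the control retina. The *Samd1* level in the AAV::*nsHif1a* retina thus lay between that of the control retina and that of the cells.

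Per kilobase of exon, *Pla2r1* led in the control retina with 17.7 CPM per kb, before *Neurl1a* with 7.58 and *Samd1* with 3.99 CPM per kb. The lengths cover the exons of all transcripts in gencode M39, while the counts used the M36 basic annotation, so the order between genes is approximate. With AAV::*nsHif1a* the levels were 11.05 CPM per kb for *Pla2r1* and 12.3 for *Neurl1a*, whose spreads overlapped (SD 1.02 and 0.768, n = 5), and 6.48 CPM per kb for *Samd1*. In the control cells *Samd1* led with 9.98 CPM per kb, before *Neurl1a* with 0.507 and *Pla2r1* with 0.0522 CPM per kb.

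**Figure D4:**
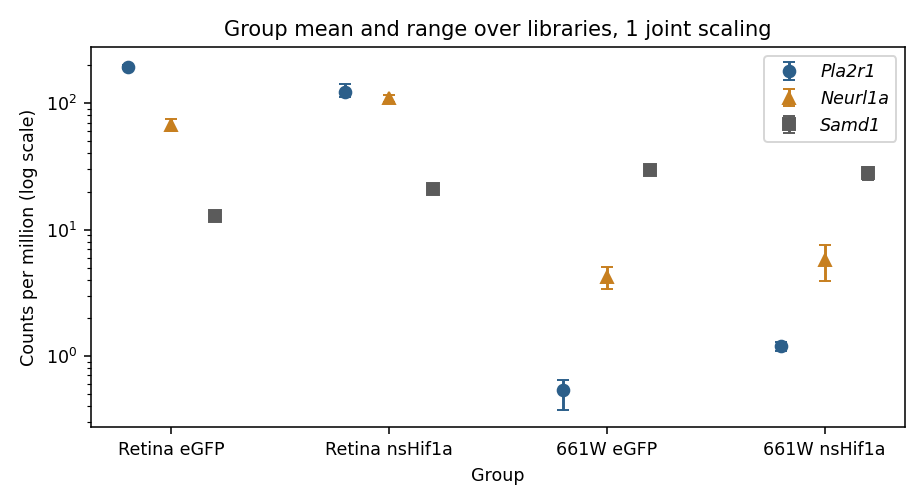
Level of each gene in CPM (y axis, log scale) in the 4 groups after 1 joint scaling of the 18 libraries. Symbols give the group mean and bars the lowest and highest library. *Pla2r1* and *Neurl1a* are higher in both retinal groups than in both cell groups, and *Samd1* is higher in the cells.

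The pathways around the 3 genes were followed with 12 lists of 90 genes in all. In the retina 82 of them were tested and 0 were called in either direction, against 1.08% and 0.912% of all genes. By limma 20 of the 82 (24.4%) had an unadjusted *p*-value under 0.05, against 21.7% of all tested genes, and the median log2FC of the 82 was 0.01. By edgeR 15 and by DESeq2 18 of these genes had an unadjusted *p*-value under 0.05, and neither tool called a gene.

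Of the 11 secreted phospholipases A2 on the list around PLA2R1, not all of which need be its ligands, 5 were tested in the retina. None of these 5 had an unadjusted limma *p*-value under 0.05. *Pla2g5* was the most abundant of them, at 138 ± 9.39 CPM in controls and 129.7 ± 5.06 CPM in AAV::*nsHif1a* mice (SD, n = 5 each, log2FC -0.06). *Ly75* and *Mrc2*, the relatives of *Pla2r1* in the mannose receptor family that were tested, had a log2FC of 0.06 and -0.15. The neighbours in function of *Pla2r1* gave no call in the retina.

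The 6 other genes listed as ubiquitin ligases of Notch ligands, not all of which need be such ligases, gave no call in the retina. *Mib1*, the principal such ligase in mammals, was at 167 ± 7.22 and 169.8 ± 7.40 CPM (SD, n = 5 each, log2FC 0.04), and *Neurl4* was at 132 ± 5.80 and 126 ± 7.39 CPM (log2FC -0.09). *Neurl1b*, the nearest relative of *Neurl1a*, was at 1.20 ± 0.374 and 1.22 ± 0.47 CPM (log2FC -0.03). Among the ligands, *Jag1* had a log2FC of -0.18 (limma adjusted *p* = 0.17) and *Dll4* of 0.45 (limma adjusted *p* = 0.17), and the receptors *Notch1* to *Notch4* lay between -0.04 and 0.23. In the processing and nuclear steps, limma's adjusted *p*-value was under 0.05 for *Pofut1*, which fucosylates Notch (log2FC -0.18), for the gamma-secretase subunits *Aph1a* (0.23) and *Aph1b* (-0.35) and for the coactivator *Maml3* (0.45), all under the fold threshold. The paralogs *Aph1a* and *Aph1b* had opposite signs, and for both the groups did not overlap. Of the 82 tested list genes, 7 had groups without overlap, 5 above and 2 below the controls, with *L3mbtl3* among them. Among all tested genes 3.25% were above and 2.69% below in this way, so nothing is read from it. With the *Xist* class as a covariate, or in the libraries with *Xist* counts alone, *Maml3* was called upregulated.

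Among the partners of SAMD1, *L3mbtl3* had a log2FC of 0.40 (SE 0.08, limma adjusted *p* = 0.013), from 13.1 ± 0.418 to 16.8 ± 1.75 CPM (SD, n = 5 each), without overlap of the groups and under the fold threshold. *Kdm1a*, which encodes LSD1, was at 69.5 ± 2.29 and 69.8 ± 1.30 CPM (SD, n = 5 each, log2FC 0.00). *Kdm2a*, a demethylase that also binds unmethylated CpG, had a log2FC of 0.26 (limma adjusted *p* = 0.012), again under the fold threshold. The genes past the adjusted *p*-value alone were 6 of the 82 tested list genes (7.32%), close to the 5.79% among all tested genes.

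In the cells 73 of the 90 genes were tested, 1 was called upregulated and 0 downregulated, against 1.21% and 0.0626% of all genes. By limma 17 (23.3%) had an unadjusted *p*-value under 0.05, against 20.7% of all tested genes. The called gene was *Rcor2*, a corepressor in LSD1 complexes, which rose from 14.5 ± 1.82 to 28.8 ± 6.82 CPM (SD, n = 4 each, log2FC 0.98, SE 0.17, limma adjusted *p* = 0.024). In the retina *Rcor2* had a log2FC of 0.10 (limma adjusted *p* = 0.65). *Kdm2a* had 0.19 in the cells at a limma adjusted *p* of 0.047, under the fold threshold. *Mib2* had 0.33 (limma adjusted *p* = 0.056) and *L3mbtl3* -0.11 (0.37). *Notch3* had the largest value of the tested list genes, 1.24 (SE 0.57, limma adjusted *p* = 0.26), with a mean of 17.8 ± 4.73 and 52.7 ± 40.6 CPM (SD, n = 4 each). Without *nsHif1a* library 3 or 4 of the cells, 6 or 5 of the 73 list genes were called upregulated (8.22% or 6.85%) and 2 downregulated (2.74%), while in the same fits 7.43% or 7.39% of all tested genes were called upregulated and 4.19% or 4.22% downregulated.

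**Figure D5:**
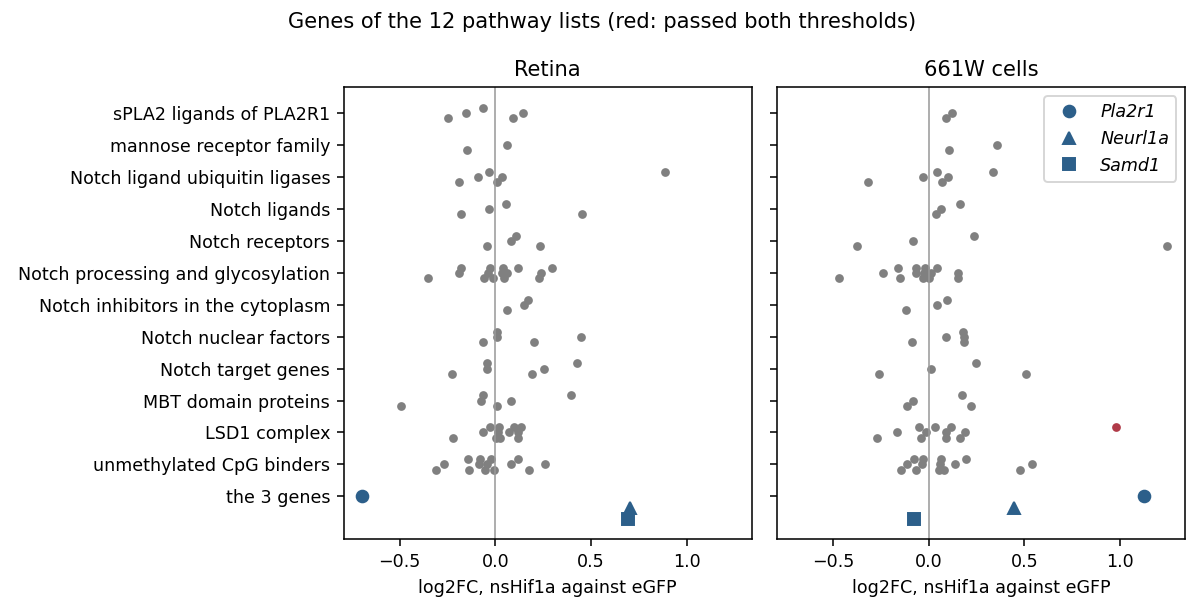
The log2FC of *nsHif1a* against eGFP (x axis) for each tested gene of the 12 pathway lists (rows) in the retina (left) and in 661W cells (right). Grey points did not pass both thresholds, the red point is *Rcor2* in the cells, and blue symbols in the bottom row are *Pla2r1*, *Neurl1a* and *Samd1*. In the retina no list gene passed. Most lie nearer to 0 than the 3 genes, which were chosen for their change there, so nothing is read from this.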

How the data were processed

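mRNA of 10 retinas and 8 cell samples was measured, 5 and 4 libraries per group. Libraries were stranded. The authors used Rsubread to align reads to GRCm39 and featureCounts, in antisense mode on the gencode M36 basic annotation, to count them, and deposited whole-number counts per gene without normalization. Here, filterByExpr with a minimum count of 10 removed low genes, libraries were scaled by TMM in edgeR 4.0.16, and voomWithQualityWeights values were fitted in limma 3.58.1 under R 4.3.3, after the study's methods. Genes were called at a Benjamini-Hochberg adjusted *p*-value under 0.05 and an absolute log2FC above 0.5. All tests were two-sided and adjusted over all genes tested. CPM are scaled by TMM, and log2 CPM use a prior count of 2. All columns of per-sample values were used. The depth of 12898220 to 17809585 counts puts 3 counts at 0.168 to 0.233 CPM, for counting error only.

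The 3 genes and all lists were chosen with earlier results of these data known, and groups come from the sample titles. Named are the 3 genes, the 12 genes with the largest absolute *t* in the retina, the 5 most like each gene per experiment, called pathway genes (up to 4 per list and experiment) and *Hif1a*. Neighbouring genes, pathway genes past the adjusted threshold alone and the other pathway genes given with values were named after their values were seen. Coordinates are from gencode M39 on GRCm39 and promoter windows from RefSeq on GRCm38.p6. The main fits of the retina and of the cells did not pair libraries. The replicate numbers of the titles entered only in the varied settings, as a block or, in the cells, as replicate classes. The main *p*-values for cells therefore ignore any pairing by number. Same-numbered cell libraries deviated together from their group means (*r* of 0.227 to 0.269 over genes, all 4 pairs), against -0.148 to 0.138 in the retina. The replicate classes of the cells can give such values too, so these *r* do not show pairs number by number. Of the 13 marker lists, 100 genes were tested in the retina with none called (all genes 1.08% up, 0.912% down), and 30 in the cells with 1 called up, the glycine transporter *Slc6a9* (all genes 1.21% up, 0.0626% down). The settings varied were the test (edgeR's quasi-likelihood, DESeq2 1.42.0), fits without quality weights, RLE size factors, no filter, the block, covariates and each library left out. The procedures were tested on simulated counts.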

Additional observations from a re-analysis of the deposited data

Results flagged for a closer look

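*Pla2r1* in AAV::*nsHif1a* retina 1 stood apart from its group. Its level was 136 CPM, the next highest of the 5 libraries had 116 CPM, and this gap was 0.748 of the range of the group, above the 95% limit of 0.71 for 5 samples. Of 12 groups of values examined in this way, 1 passed its limit, and by chance about 1 in 20 does. The value still lay below all AAV::eGFP libraries, and without this library the log2FC of *Pla2r1* in the retina was -0.74.

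*Pla2r1* was listed because its libraries lay below the controls in the retina and above them in the cells, with a difference of the log2FC of -1.85. This difference was not tested and is no independent support for opposite directions. The retinal effect chose the gene, and in the cells, at 6 to 23 counts per library, the gene passed the filter on low counts through its *nsHif1a* libraries.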

How the results depend on the processing

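The retinal log2FC kept its sign for each gene under all 8 alternatives and the omission of each library, with ranges of -0.74 to -0.67 for *Pla2r1*, 0.60 to 0.74 for *Neurl1a* and 0.65 to 0.72 for *Samd1*. Because the genes were chosen for regular changes in these same libraries, the kept signs are no independent support. The retinal log2FC moved by more than the spread between libraries for *Neurl1a* with the *Xist* class as a covariate (0.60). The control level of each gene, retina against cells, kept its direction and its call throughout. In the cells, the adjusted *p*-value of *Pla2r1* was above the threshold without the filter on low counts (1.14, more genes tested) and with the replicate block (1.12), and its log2FC was 0.997 to 1.23 when each library was left out. DESeq2 gave 1.15 with no adjusted *p*-value. The range with each library left out was 0.054 to 0.79 for *Neurl1a* and -0.16 to 0.02 for *Samd1*, which turned positive at 0.0028 and 0.015. The block changed no other call of the 3 genes.

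Genes of the pathway lists called upregulated in the retina were 0, and 1 with the *Xist* class or in the *Xist* libraries alone, and 0 to 2 with a library left out. In the cells they were 1, and 2 after adjustment for the replicate classes (1 and 2, 3 and 4), with 1 to 6 upregulated and 0 to 2 downregulated when a library was left out.

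Over all genes, 203 were upregulated in the retina, against 104 with the *Xist* class as a covariate, 64 in the *Xist* libraries alone and 137 to 313 with a library left out. The 172 downregulated genes became 111 without quality weights, 113 without the filter, 76 in the *Xist* libraries alone and 82 to 215 with a library left out. With the replicate block, 141 and 59 retinal genes were called. After group means were subtracted, same-numbered retinal libraries had a mean *r* of -0.0019, against 0.00059 for libraries of different numbers. In the cells 193 were upregulated, against 332 by DESeq2, 105 with the replicate block, 519 with the replicate classes, and 82 to 1201 with a library left out. The 10 downregulated genes became 3 by edgeR, 34 by DESeq2, 6 without quality weights, 16 without the filter, 2 with the block, 73 with the replicate classes, and 2 to 682 with a library left out. The cause was not tested. At 6 to 23 counts per library, the *Pla2r1* values in cells are limited by depth.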
